A study of Mus musculus with 4 samples.

Results

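The 10 genes described here encode matricellular proteins, the fibronectin that cells assemble around themselves, and proteins of fibrillin microfibrils: Spp1, Sparc, Smoc2, Tnc, Thbs1, Thbs2, Postn, Fn1, Fbn1 and Fbln2. They were taken by symbol from a gene table of 23351 rows, and all 10 were found. The RNA came from primary satellite cells (muscle stem cells) that had been derived from extensor digitorum longus, a hindlimb muscle, in C57BL/6 mice of 6 to 8 weeks of age. The libraries fell into 2 groups, ERβ scKO (knockout of estrogen receptor β, encoded by Esr2) and Control, with 2 libraries each analysed here, although the series' text speaks of triplicate. The title of the series concerns the receptor in the muscle of young females and in the proliferation of their muscle stem cells. The labels give neither the Cre driver nor the allele, and do not say whether a library came from 1 animal or from several, so a p-value here measures the spread between these libraries only. The replicate 1 libraries of both groups share a further number in their labels, and the replicate 2 libraries share another, without a statement of what it marks.

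Matricellular proteins are secreted into the extracellular matrix but do not build its fibres. They bind integrins, other surface receptors, growth factors and structural proteins, and thereby alter how cells attach, spread, migrate and signal. Fibronectin is the provisional scaffold onto which collagen and other matrix is laid, and fibrillin forms microfibrils that carry elastin and store latent TGF-beta. In regenerating muscle several of these proteins belong to the transient niche of the satellite cell: fibronectin and tenascin-C are known there as substrates of activated satellite cells, and osteopontin is made both by myoblasts and by invading immune cells.

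Expression was given as FPKM, a count of fragments divided by transcript length and library depth, so levels can be compared between genes per length. Estimated depths, read from the steps between low values, were 2700000 and 2900000 fragments in ERβ scKO replicates 1 and 2, and 2500000 and 2900000 in Control replicates 1 and 2. Esr2 was listed at 0 in both ERβ scKO libraries, against 0.234 and 0.202 FPKM in the Control libraries. Such levels are under the 0.308 to 0.357 FPKM that 3 fragments would give, and cannot tell whether the libraries match their genotype. All 8 satellite cell and myoblast markers averaged 1 FPKM or more, and Myod1, the myogenic determination factor, averaged 347 ± 28.8 FPKM in ERβ scKO and 350.1 ± 49.2 in Control (SD, n = 2 each). Myog was at 623 and 660 FPKM in ERβ scKO and 494 and 621 in Control. Pax7 was at 10.4 and 10.7 FPKM in ERβ scKO and 10.7 and 10.5 in Control. Myog, Chrna1 and Myf5 were lowest in Control replicate 1, whereas Myod1, Cdh15, Itga7, Des and Pax7 were highest there. Summed levels of the endothelial, leukocyte and Schwann cell marker lists were between 0.427 and 8.50 FPKM in every library. The smooth muscle and pericyte list was high, with sums of 897 and 864 FPKM in ERβ scKO and 840 and 854 in Control. Most of that was Acta2, smooth muscle actin, at 826 and 801 FPKM in ERβ scKO and 781 and 790.4 in Control, followed by Rgs5 at 61.4 and 55.3 in ERβ scKO and 42.3 and 56.7 in Control, while the smooth muscle myosin gene Myh11 was at 0.263 FPKM or less.

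The 10 genes spanned a wide range of levels. Spp1 averaged 7250.4 FPKM over the 4 libraries, and ranked second and first among all rows in ERβ scKO replicates 1 and 2, and 3 and 2 in Control replicates 1 and 2. Below it came Sparc at 756 FPKM and Thbs1 at 622, then Fn1 at 302 and Tnc at 189. The other 5 were much lower: Fbln2 averaged 26.1 FPKM, Fbn1 21.2, Smoc2 14.6, Thbs2 6.55 and Postn 4.43. The 4-library ranges of Sparc and Thbs1 overlapped, as did those of each neighbouring pair from Fbln2 down to Postn, so the order within these stretches is not settled. Spp1 was separated from Sparc, Thbs1 from Fn1, Fn1 from Tnc, and Tnc from Fbln2 by ranges that did not overlap. Using the longest protein-coding transcript of each gene, the lowest values rested on about 30 fragments for Postn, 52 for Smoc2 and 86 for Thbs2, while Spp1 rested on 21000 or more.

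**Figure D1:**
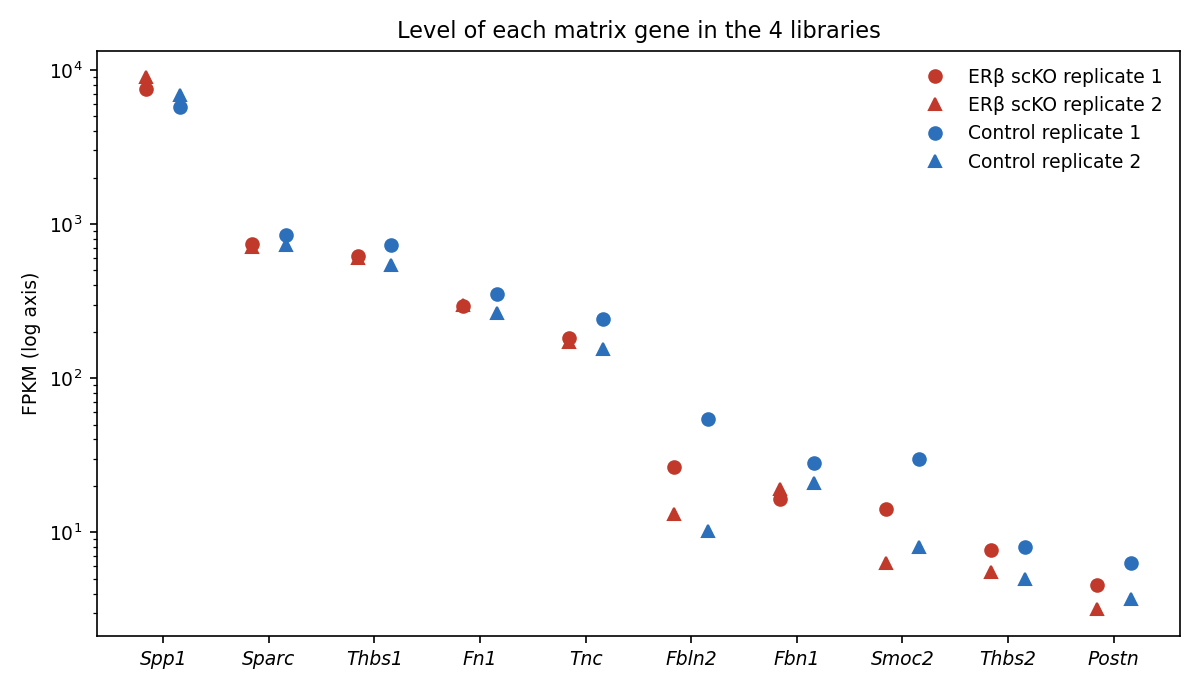
FPKM on a log axis of each gene in each library, ordered by the mean over the 4 libraries, with ERβ scKO libraries in red to the left of Control libraries in blue (circles replicate 1, triangles replicate 2). Spp1 lies above all other genes in every library, and the widest distance between replicates is that of Fbln2 in Control, at 54.4 and 10.3 FPKM.

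The start sites of 3 genes are shown because they carry the contrasts described below: Spp1 and Fbn1, in which the 2 groups did not overlap in opposite directions, and Fbln2, with the widest spread between replicates. Each window runs from 250 bases before to 50 bases after the RefSeq start site on GRCm38.p6, the assembly of mm10, and each start site coincides with the end of the deposited locus. The windows are chr5:104434861-104435160 on the plus strand for Spp1, chr2:125506389-125506688 on the minus strand for Fbn1 and chr6:91212514-91212813 on the plus strand for Fbln2, written 5′ to 3′ with matches to the searched motifs in capitals.
Spp1: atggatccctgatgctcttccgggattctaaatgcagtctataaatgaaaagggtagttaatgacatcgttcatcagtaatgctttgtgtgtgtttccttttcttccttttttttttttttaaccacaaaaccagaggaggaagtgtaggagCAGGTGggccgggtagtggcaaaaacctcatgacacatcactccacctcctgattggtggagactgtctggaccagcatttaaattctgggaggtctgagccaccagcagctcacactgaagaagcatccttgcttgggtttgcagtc
Fbn1: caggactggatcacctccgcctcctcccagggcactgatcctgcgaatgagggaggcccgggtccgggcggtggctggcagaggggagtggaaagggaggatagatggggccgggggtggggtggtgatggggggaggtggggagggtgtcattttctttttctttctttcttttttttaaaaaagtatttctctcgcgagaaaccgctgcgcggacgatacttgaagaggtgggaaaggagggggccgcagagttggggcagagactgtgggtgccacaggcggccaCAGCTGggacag
Fbln2: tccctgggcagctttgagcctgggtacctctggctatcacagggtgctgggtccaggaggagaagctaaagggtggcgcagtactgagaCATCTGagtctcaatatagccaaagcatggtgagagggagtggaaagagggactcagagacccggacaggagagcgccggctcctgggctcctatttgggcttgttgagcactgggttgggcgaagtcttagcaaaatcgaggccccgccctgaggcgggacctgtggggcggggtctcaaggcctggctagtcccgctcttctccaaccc
Every capital stretch is an E-box, CANNTG, the core recognised by MyoD and other basic helix-loop-helix factors: it begins at position -98 from the start site in Spp1, 39 in Fbn1 and -161 in Fbln2. The other motifs searched on both strands were AGGTCA (one arm of the estrogen response element), the full estrogen response element, GGAATG (TEAD factors) and TGANTCA (AP-1), and none of them matched in these 3 windows. The table held 10 windows for 7 of the genes (Spp1, Sparc, Tnc, Thbs2, Postn, Fbn1 and Fbln2). An E-box was in 8 of the 10, against 72.3% of all 32851 windows, and an AGGTCA match in 1 of the 10, upstream of an alternative Postn start, against 16.3% of all windows. The full estrogen response element, TEAD and AP-1 motifs were in none of the 10, and in 0.07%, 14.7% and 7.81% of all windows. The letters GGTCA are common to AGGTCA and the full element, so matches to these motifs can overlap. A match is a description of the letters only.

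The comparison of ERβ scKO with Control asked whether the transcripts of these matrix genes differed between genotypes. None of the 10 passed limma's test on log2(FPKM + 1) at a Benjamini-Hochberg adjusted p of 0.05 over the 11201 genes that averaged 1 FPKM or more, where limma called 0.0357% of genes. Those were the 4 genes Rn45s, Snora31, Snord35a and Snora23, none of them a matrix gene and all named after their values were seen. Adjusted p-values of the 10 genes were between 0.837 and 0.983. In the authors' deposited table none of the 10 had a q under 0.05, and 0% of the 9426 genes they tested did. At an unadjusted p under 0.05 limma had 1 of the 10, Spp1, with the higher mean in ERβ scKO. The share of all genes was 4.62%, made up of 2.43% higher and 2.2% lower in ERβ scKO. The authors' deposited table had 3 of the 10 at p under 0.05 (Smoc2, Fbln2 and Fbn1), against 3.25% of all genes they tested. All 3 had the lower mean in ERβ scKO, against 1.92% of all genes they tested. The groups did not overlap in 2 of the 10, Spp1 and Fbn1, against 36.5% of all genes. The mean log2 value was lower in ERβ scKO for 8 of the 10, against 50.7% of all genes, and the median log2 ratio of ERβ scKO over Control was -0.12, against -0.0037 over all genes. Without Control replicate 1 that median was 0.19. At this group size the smallest two-sided p that an exact permutation test allows is 0.333.

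Osteopontin, encoded by Spp1 (chromosome 5, 104435111 to 104441053, mm10), is a secreted phosphoprotein that binds integrins and CD44. Spp1 was at 7527 and 8939 FPKM in ERβ scKO replicates 1 and 2, and at 5705 and 6831 FPKM in Control replicates 1 and 2. Both ERβ scKO libraries lay above both Control libraries, a position shared by 18.3% of all genes. The means were 8233 ± 998 FPKM in ERβ scKO and 6268 ± 797 in Control (SD, n = 2 each). Its log2 ratio was 0.39 (SE 0.14), with an unadjusted limma p of 0.0352 and an adjusted p of 0.837, and the authors' deposited table gave p = 0.214. The ratio was 0.40 in the replicate 1 pair and 0.39 in the replicate 2 pair, so the 2 numbered pairs gave nearly the same value. Spp1 was the single gene of the 10 whose Control replicate 1 was the lowest of the 4 libraries. The nuclear RNA Malat1 was also higher in both ERβ scKO libraries, at 141 and 166 FPKM in ERβ scKO and 63.5 and 115 in Control, as was Neat1 at 129 and 143 in ERβ scKO and 79.7 and 90.8 in Control. Their part in the Spp1 difference was not tested.

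Sparc and Smoc2 belong to the same family of calcium-binding matricellular proteins. SPARC, also called osteonectin, binds collagen and modulates cell adhesion (chromosome 11, 55394501 to 55420080). Sparc was at 737 and 713 FPKM in ERβ scKO and 842 and 732 in Control. Control replicate 2 lay between the ERβ scKO libraries, and the log2 ratio was -0.11 (SE 0.11, adjusted p = 0.846 by limma). Smoc2 encodes a SPARC-related modular protein (chromosome 17, 14279506 to 14404790). It was at 14.2 and 6.31 FPKM in ERβ scKO and 29.9 and 8.08 in Control. The replicate 1 library was the higher in each group, and the groups overlapped. Its means of 10.3 ± 5.59 FPKM in ERβ scKO and 19.0 ± 15.4 in Control (SD, n = 2 each) differed by less than the Control SD. Smoc2 had the lowest log2 ratio of the 10, -0.67 (SE 0.62, adjusted p = 0.846 by limma), and the lowest p of the 10 in the authors' deposited table (p = 0.00085, q = 0.422). Its ratio was -1.02 in the replicate 1 pair and -0.31 in the replicate 2 pair, both lower in ERβ scKO. Without Control replicate 1 the ratio was 0.22. The level of Sparc over Smoc2 was 51.9 and 113 in ERβ scKO and 28.1 and 90.5 in Control, so the proportions of these relatives differed more between replicates than between groups.

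Thrombospondins 1 and 2 are trimeric glycoproteins that restrain angiogenesis, and thrombospondin 1 can activate latent TGF-beta. Thbs1 (chromosome 2, 118111922 to 118127133) was at 619 and 604 FPKM in ERβ scKO and 728 and 538 in Control. Both ERβ scKO values lay between the Control values, and the log2 ratio was -0.03 (SE 0.16). Thbs2 (chromosome 17, 14665500 to 14694262, 260709 bases beyond Smoc2) was at 7.64 and 5.56 FPKM in ERβ scKO and 7.99 and 5.01 in Control. These too were enclosed by the Control values, with a log2 ratio of 0.03 (SE 0.26). Thbs1 exceeded Thbs2 by 81.1 and 109 times in ERβ scKO and by 91.1 and 107 times in Control, so one paralog supplied nearly all thrombospondin transcript of this pair in every library. Limma's adjusted p was 0.972 for Thbs1 and 0.983 for Thbs2.

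Tenascin-C, encoded by Tnc (chromosome 4, 63959785 to 64047015), is a hexameric glycoprotein that loosens adhesion to fibronectin. Tnc was at 183 and 172 FPKM in ERβ scKO and 243 and 156 in Control. The Control values enclosed the ERβ scKO values, and the log2 ratio of -0.13 (SE 0.21, adjusted p = 0.901 by limma) was -0.41 in the replicate 1 pair and 0.15 in the replicate 2 pair. Periostin, encoded by Postn (chromosome 3, 54361107 to 54391041), binds tenascin-C, fibronectin and collagen and is a typical product of activated fibroblasts. Postn was at 4.55 and 3.17 FPKM in ERβ scKO and 6.28 and 3.72 in Control. The groups overlapped, with the replicate 1 library the higher in each. Its log2 ratio was -0.28 (SE 0.28, adjusted p = 0.846 by limma), and 0.03 without Control replicate 1. Tnc exceeded its partner Postn by 40.2 and 54.3 times in ERβ scKO and by 38.7 and 41.9 times in Control.

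Of the structural proteins, fibronectin was the most abundant. Fn1 (chromosome 1, 71585473 to 71653234) was at 295 and 299.6 FPKM in ERβ scKO and 349 and 265 in Control. The ERβ scKO libraries were nearly equal and lay between the Control libraries, with a log2 ratio of -0.03 (SE 0.15, adjusted p = 0.969 by limma). The plasma and cellular forms of fibronectin come from alternative splicing, which a value per gene does not resolve.

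Fibrillin-1 is the backbone of microfibrils. Fbn1 (chromosome 2, 125300594 to 125506438) was at 16.5 and 19.0 FPKM in ERβ scKO and 28.3 and 20.9 in Control. Both ERβ scKO libraries lay below both Control libraries, a position held by 18.3% of all genes and by no other of the 10. The means were 17.8 ± 1.78 FPKM in ERβ scKO and 24.6 ± 5.24 in Control (SD, n = 2 each). The log2 ratio was -0.43 (SE 0.18), with an unadjusted limma p of 0.0565 and an adjusted p of 0.837, and the authors' deposited table gave p = 0.0199 and q = 0.998. The ratio was -0.74 in the replicate 1 pair and -0.13 in the replicate 2 pair, and -0.22 without Control replicate 1.

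Fibulin-2 binds fibronectin and fibrillin-1 and is found in basement membranes and elastic tissue. Fbln2 (chromosome 6, 91212764 to 91272540) was at 26.4 and 13.2 FPKM in ERβ scKO and 54.4 and 10.3 in Control. The Control libraries stood 5.30 times apart and enclosed both ERβ scKO values. The means, 19.8 ± 9.39 FPKM in ERβ scKO and 32.3 ± 31.2 in Control (SD, n = 2 each), differed by less than the Control SD. The log2 ratio was -0.34 (SE 0.74, adjusted p = 0.928 by limma), and in the authors' deposited table p was 0.00295 and q 0.795. The ratio was -1.01 in the replicate 1 pair and 0.33 in the replicate 2 pair, and it was 0.81 without Control replicate 1. The level of Fbn1 over Fbln2 was 0.625 and 1.45 in ERβ scKO and 0.520 and 2.03 in Control. Fbln2 transcript exceeded Fbn1 transcript in both replicate 1 libraries and was below it in both replicate 2 libraries.

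**Figure D2:**
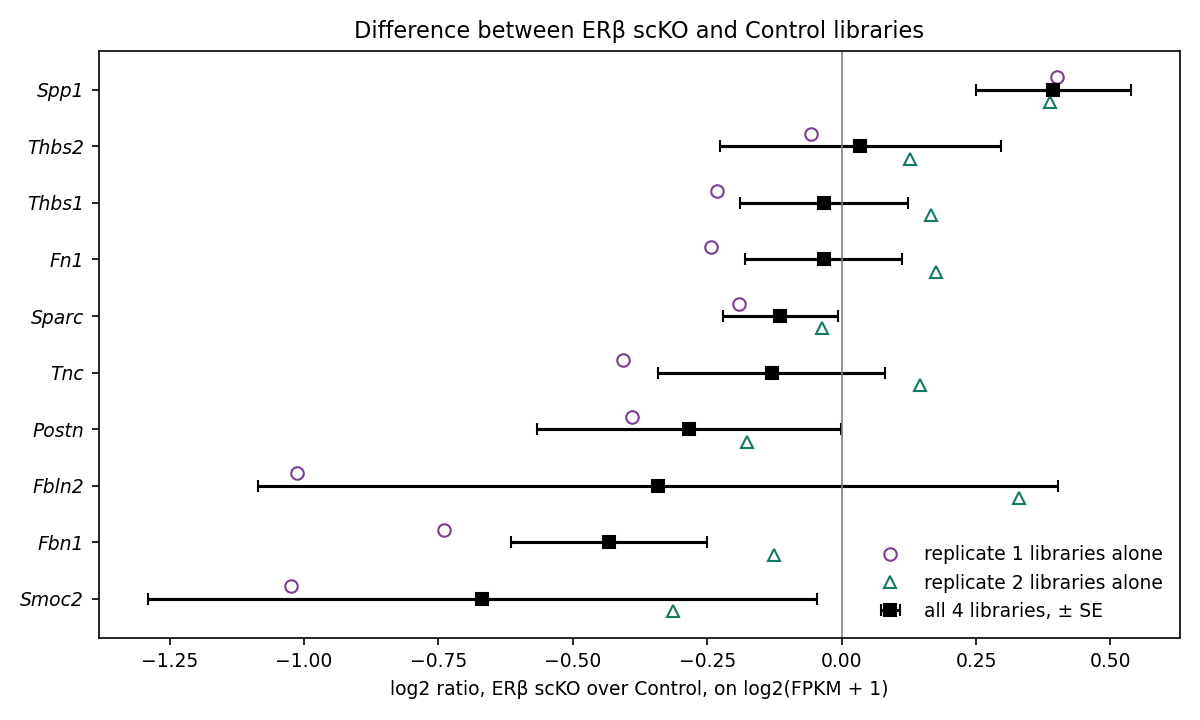
Each gene's log2 ratio (ERβ scKO over Control, from FPKM + 1): squares with bars are limma's estimate from all 4 libraries with its SE, circles replicate 1 alone and triangles replicate 2 alone. For Spp1 the replicate 1 and replicate 2 ratios are 0.40 and 0.39, whereas for Fbln2 they are -1.01 and 0.33. The estimate from all 4 libraries is the mean of these 2 ratios.

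Control replicate 1 was the highest of the 4 libraries in 9 of the 10 genes, Spp1 being the exception, against 34.3% of all genes. By that position Control replicate 1 necessarily exceeded Control replicate 2 in those 9 (50.1% of all genes). ERβ scKO replicate 1 exceeded ERβ scKO replicate 2 in 7 (50.8% of all genes). The median signed difference of replicate 1 minus replicate 2 over the 10 genes was 0.07 on the log2 scale in ERβ scKO and 0.51 in Control, against 0.0035 in ERβ scKO and 0.00055 in Control over all genes. Both ERβ scKO values lay within the range of the Control values in 5 of the 10 (Tnc, Thbs1, Thbs2, Fn1 and Fbln2), against 21.3% of all genes. Between the replicate 1 libraries the same 9 of the 10 were lower in ERβ scKO (51.3% of all genes), with a median ratio of -0.32. That count also follows from Control replicate 1 being the highest library, and is not a separate result. Between the replicate 2 libraries 6 of the 10 were higher in ERβ scKO, with a median ratio of 0.14, against 50.9% of all genes. In 5 of the 10 the ratio was negative in the replicate 1 pair and positive in the replicate 2 pair, against 22.2% of all genes. Sparc, Postn, Fbn1 and Smoc2 were lower in ERβ scKO in both numbered pairs.

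**Figure D3:**
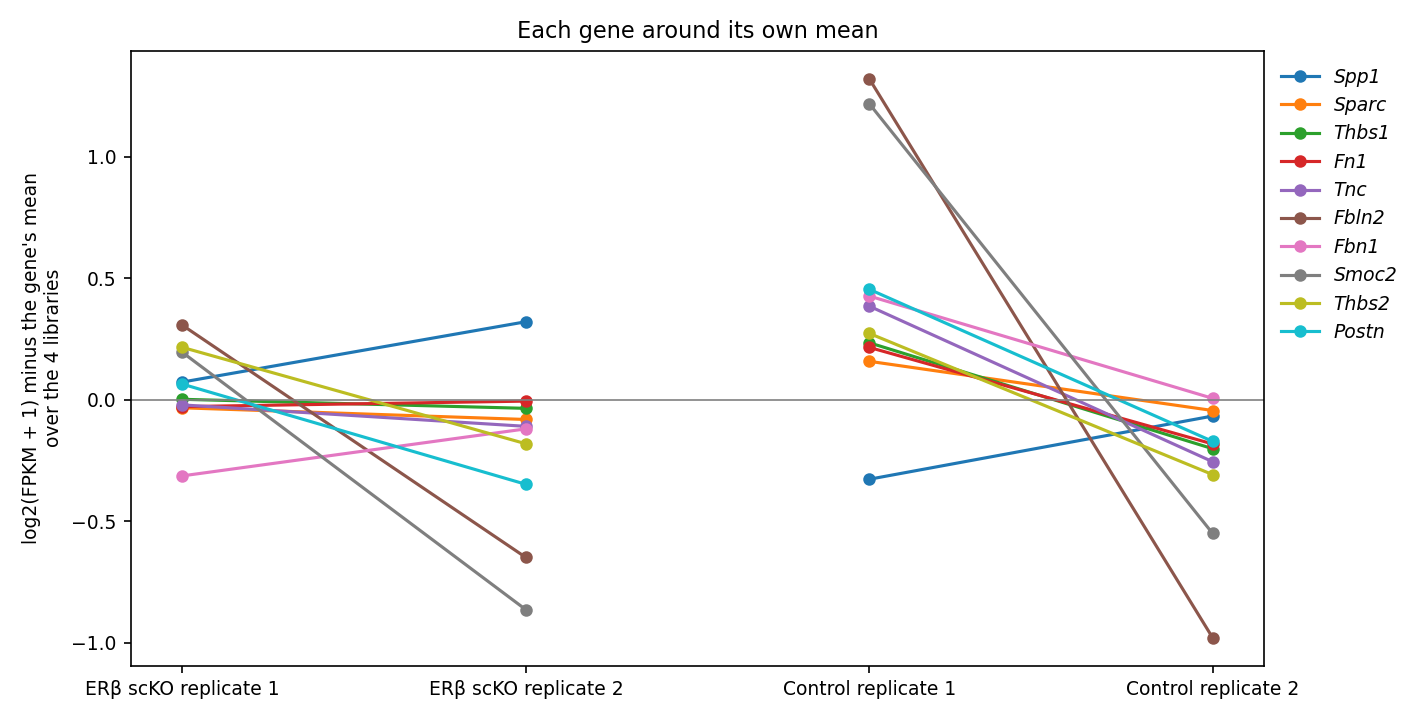
Log2(FPKM + 1) of each gene minus its own mean over the 4 libraries, with lines joining the replicates of a group. In Control replicate 1 all genes but Spp1 lie above 0, led by Fbln2 and Smoc2.

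Markers of fibroblasts and fibro-adipogenic progenitors, cells of muscle that also make these matrix proteins, were summed for each library. Of the 10 such markers, 8 averaged 1 FPKM or more, while Lum and Tcf21 were listed at 0 in every library. Their summed level was 133 and 114 FPKM in ERβ scKO replicates 1 and 2, and 201 and 133 in Control replicates 1 and 2. Most of the sum came from the collagen genes Col1a2, at 50.3 and 44.1 FPKM in ERβ scKO and 78.3 and 54.1 in Control, and Col3a1, at 63.4 and 61.4 in ERβ scKO and 81.0 and 69.1 in Control. Col1a1, the other chain of type I collagen, was at 2.09 and 1.40 FPKM in ERβ scKO and 18.7 and 0.909 in Control. All 3 collagen genes were highest in Control replicate 1 and higher in replicate 1 than in replicate 2 of each group. Pdgfra, the surface receptor by which such cells are usually sorted, was likewise highest in Control replicate 1 and higher in replicate 1 of each group, at 2.64 and 0.149 FPKM in ERβ scKO and 3.17 and 0.446 in Control. The proteoglycan gene Dcn was also higher in replicate 1 of each group but highest in ERβ scKO replicate 1. It was at 2.36 and 0.195 FPKM in ERβ scKO and 1.96 and 0.584 in Control. Cd34 was placed likewise, at 6.81 and 4.002 FPKM in ERβ scKO and 6.16 and 3.03 in Control. Its log2 ratio was 0.22. Pdgfrb and Ly6a were highest in Control replicate 1 and higher in replicate 1 of each group. Ly6a hardly differed between the ERβ scKO libraries, at 1.29 and 1.21 FPKM, and was at 3.25 and 2.41 in Control. The replicate 2 values of Pdgfra and Dcn were low, under 1 FPKM in both groups. Of the 10 matrix genes, 7 were higher in replicate 1 of each group, all but Spp1, Fn1 and Fbn1. Over all genes, 50.1% were higher in replicate 1 in Control and 50.8% in ERβ scKO. The share higher in replicate 1 of both groups was not computed, so the 7 cannot be set against it. The part of other cells in the values of the matrix genes was not tested, and in bulk RNA fewer cells of a type and less RNA per cell cannot be told apart.

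Related genes were described from 3 lists. Of 20 other matricellular genes, 7 reached a mean of 1 FPKM and 6 of those 7 had the lower mean log2 value in ERβ scKO (50.7% of all genes), with a median of -0.09. Control replicate 1 was the highest library in 4 of the 7 (34.3% of all genes). Limma called none of the 7 over all genes and had 1 at an unadjusted p under 0.05 (4.62% of all genes). Cyr61, an integrin-binding protein of the CCN family, was at 148 and 144 FPKM in ERβ scKO and 177 and 136 in Control, and Npnt (nephronectin, a ligand of integrin α8β1) at 84.5 and 87.5 in ERβ scKO and 79.4 and 101 in Control. In both, the ERβ scKO values lay within the Control range. Ctgf, another CCN protein, was at 89.2 and 31.4 FPKM in ERβ scKO and 180 and 29.8 in Control, again with Control replicate 1 the highest. The authors' deposited table gave it p = 0.0006 and q = 0.377. Thbs3, a pentameric thrombospondin, was at 2.13 and 1.79 FPKM in ERβ scKO and 4.997 and 3.68 in Control. It was the single one of the 7 in which the groups did not overlap, against 36.5% of all genes. Its log2 ratio was -0.84 (SE 0.23, unadjusted limma p = 0.0107, adjusted p = 0.837), and in the authors' deposited table its p was 0.00765 and its q 0.998.

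Of 20 elastic fibre and microfibril genes, 12 were measured, 10 of them with the lower mean log2 value in ERβ scKO (50.7% of all genes). Their median was -0.15. Control replicate 1 was the highest library in 9 of the 12 (34.3% of all genes). Limma called none of the 12 over all genes and had 0 at an unadjusted p under 0.05 (4.62% of all genes). In 2 of the 12 both ERβ scKO libraries lay below both Control libraries, and in 0 above, against 18.3% of all genes for each position. Efemp2 (fibulin-4, needed for elastic fibre assembly) was at 55.4 and 44.1 FPKM in ERβ scKO and 56.4 and 41.0 in Control, and Ltbp1, which tethers latent TGF-beta to fibrillin, at 43.2 and 43.6 in ERβ scKO and 41.4 and 46.5 in Control. Both were enclosed by their Control values. Lox, the lysyl oxidase that crosslinks elastin and collagen, was at 40.6 and 33.3 FPKM in ERβ scKO and 65.03 and 35.7 in Control (the authors' deposited table gave p = 0.0295 and q = 0.998), and Emilin1 at 5.23 and 3.94 in ERβ scKO and 9.25 and 3.17 in Control. Elastin itself, Eln, was listed at 0 in every library.

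Of 20 genes listed as matrix receptors, 17 were measured, 9 with the lower (50.7% of all genes) and 8 with the higher mean log2 value in ERβ scKO. The median was -0.06. Control replicate 1 was the highest library in 9 of the 17 (34.3% of all genes). Limma called none over all genes. The single gene at an unadjusted limma p under 0.05 (4.62% of all genes) was Itgb1bp1. It encodes a cytoplasmic protein that binds the β1 integrin tail and is not itself a matrix receptor. Cd44, a receptor of osteopontin, was at 159 and 157 FPKM in ERβ scKO and 145 and 132 in Control. Its ERβ scKO libraries lay above its Control libraries, as those of Spp1 and of 18.3% of all genes did. The log2 ratio was 0.19 (SE 0.10, adjusted p = 0.837 by limma). Of the 17, 2 had this position, Cd44 and Itgb1bp1. In 3 others, Itgav, Sdc3 and Itgb8, both ERβ scKO libraries lay below both Control libraries, as in 18.3% of all genes. Itgb1, the β1 chain shared by most matrix integrins, was at 335 and 348 FPKM in ERβ scKO and 342 and 326 in Control. Itga5 and Itgb3, the integrin chains α5 and β3, were highest in Control replicate 1: Itga5 was at 35.0 and 24.5 FPKM in ERβ scKO and 57.7 and 24.0 in Control, and Itgb3 at 6.20 and 4.46 in ERβ scKO and 12.0 and 4.18 in Control. In the authors' deposited table the p of Itga5 was 0.0319 and that of Itgb3 0.0207, with q = 0.998 for each.

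**Figure D4:**
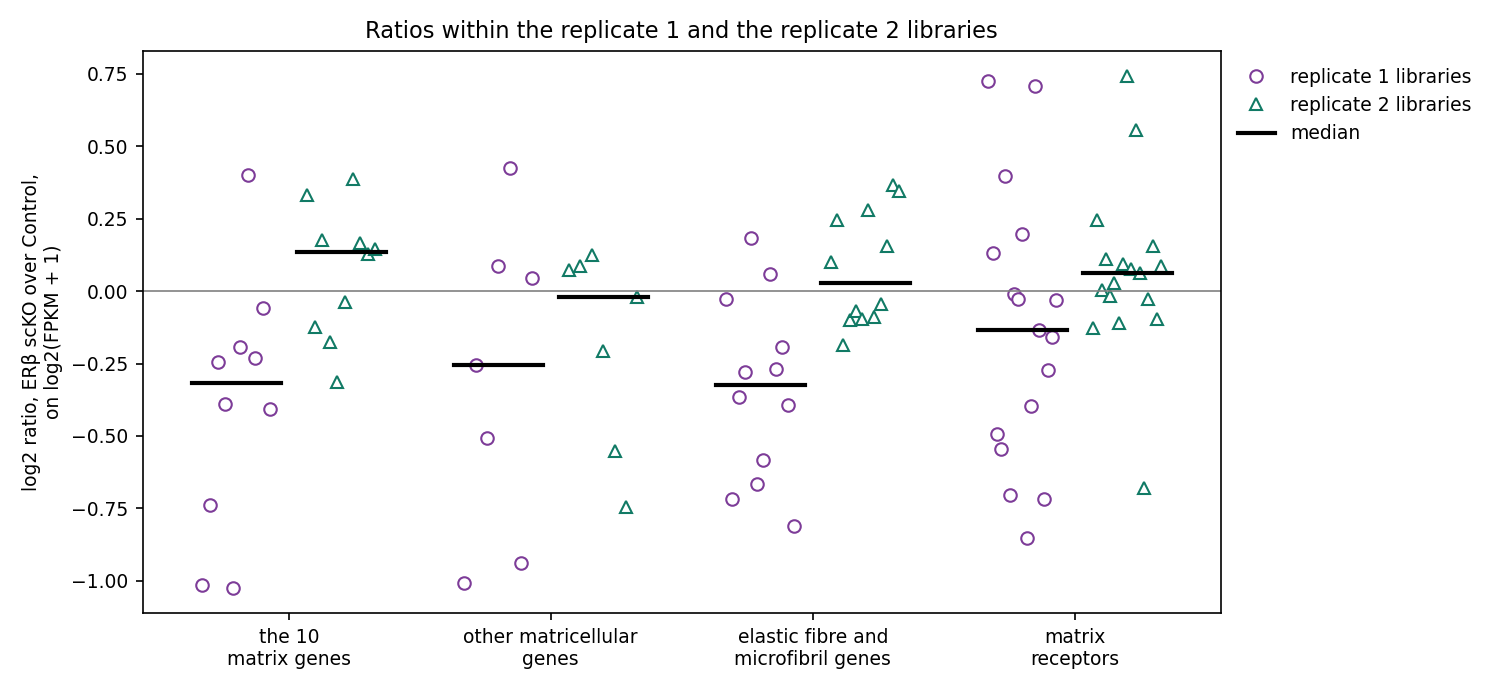
Log2 ratios (ERβ scKO over Control, from FPKM + 1) for the 10 matrix genes and the 3 related lists, within replicate 1 (circles) and within replicate 2 (triangles), with bars at the medians. The replicate 1 medians are -0.32, -0.26, -0.32 and -0.14 from left to right, and the replicate 2 medians are 0.14, -0.02, 0.03 and 0.06.

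Likeness between genes was described by the root mean square difference of their log2(FPKM + 1) values over the 4 libraries, each gene centred on its mean. Among the 10, Thbs1 and Fn1 were the closest pair, at 0.025, and Fbln2 and Spp1 the farthest apart, at 1.07. Smoc2 and Fbln2 were each other's nearest among the 10, at 0.25. Outside the 10, among 6400 genes averaging 10 FPKM or more, the nearest to Fbln2 was Inhba, the gene of the activin βA chain, at 0.14, with 20.1 and 8.16 FPKM in ERβ scKO and 41.2 and 6.04 in Control. The nearest to Smoc2 was Dohh at 0.18, to Fbn1 Ccnf at 0.032, to Sparc the ribosomal protein gene Rpl6 at 0.0047 and to Spp1 Zfp617 at 0.012. Over 4 libraries many genes lie this close.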

How the data were processed

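Polyadenylated RNA was sequenced after a stranded library preparation, per the labels' protocols. Per the submitters' processing notes, the authors used TopHat, Cufflinks and the mm10 build. Versions and annotation are not given in the sources used here. The deposited table holds FPKM per gene and library as computed by the authors, their log2 fold change, and the p-value and q-value of the authors' own test, per the file headers. No read counts were used.

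Library values were compared with limma 3.58.1 (R 4.3.3, trend in the variance, two-sided, Benjamini-Hochberg) on log2(FPKM + 1) over the 11201 genes averaging 1 FPKM or more. Its mean estimates were checked on simulated data whose noise depended on the level alone. That does not test the calls for genes of wider spread. Log2 ratios are differences of group means on that scale, which understates changes of low genes. Fragments per library were estimated from the spacing of low values in single-transcript genes over 1500 bases (GENCODE M21): 82.6% to 86.2% of low values fell within 0.2 of a whole fragment, against 40% by chance, and the estimates cover counting error only. Rows whose symbols had become dates (27) were tested but are named nowhere.

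The 10 genes, the related lists and the markers were chosen with earlier results of these data known. Named from each related list were the 2 genes with the highest mean and the 2 with the lowest p in the authors' table. Itgb1bp1, Itgav, Sdc3, Itgb8 and Eln were named after their values were seen. Promoter windows came from RefSeq on GRCm38.p6. Alternatives were other pseudocounts, filters, scalings, no variance trend, replicate number as a block and each library left out.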

Additional observations from a re-analysis of the deposited data

How the results depend on the processing

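No alternative made limma call any of the 10 genes, and their adjusted p-values under the alternatives were between 0.168 and 1. At unadjusted p under 0.05 limma had 1 of the 10, and 3 of the 10 had such a p in the authors' deposited table. Genes called over the whole table were 4 as reported, 2 with no filter on low values and 7 to 11 with a library left out. Of the 10, the number whose groups did not overlap was 2 as reported (36.5% of all genes). It was 3 with upper quartile scaling, a fit for which no share of all genes was taken. It was 2 to 10 with a library left out, where 1 library alone stands for its group and is assumed to vary like the others. Dropping Control replicate 2 gave 10 of these (79.9% of all genes in the same fit), Control replicate 1 gave 7 (68.5%), ERβ scKO replicate 1 gave 5 (65.2%) and ERβ scKO replicate 2 gave 2 (59.4%). Leaving out each library in turn gave medians of -0.35 to 0.19 for the 10 genes, -0.277 to -0.060 for other matricellular genes, -0.34 to 0.13 for elastic fibre and microfibril genes and -0.157 to 0.066 for receptors. The positive medians came without Control replicate 1. With no filter on low values the median of other matricellular genes was 0.0046, over 17 genes. Log2 ratios that changed sign with a library left out ranged from -1.49 to 0.81 for Fbln2, -1.55 to 0.22 for Smoc2, -0.596 to 0.029 for Postn, -0.45 to 0.19 for Tnc, -0.25 to 0.18 for Thbs1, -0.23 to 0.16 for Fn1 and -0.26 to 0.33 for Thbs2; without Control replicate 1 the ratios of Tnc, Thbs1, Postn, Fn1, Fbln2 and Smoc2 were positive, without ERβ scKO replicate 2 that of Fbln2, and without Control replicate 2 or ERβ scKO replicate 1 that of Thbs2 was negative. Spp1 stayed between 0.26 and 0.52, Fbn1 between -0.64 and -0.22 and Sparc between -0.22 and -0.01 in those fits. The cause was not tested. Other pseudocounts, filters and scalings changed the sign of none of the 10. With replicate number as a block limma called 0 of the 10 and 6 genes in all, and the SE of Smoc2 was 0.21 and its adjusted p 0.579. The replicate differences of the 2 groups correlated at 0.21 across all genes, which are not independent, and with 2 pairs the numbers are not shown to pair the samples. Depth limits Postn, Smoc2 and Thbs2 most.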
